A study of Mus musculus with 16 samples.

Results

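The cells described here are dendritic cells and monocytes of the liver-draining lymph nodes that carried a shared myeloid gene set without the marker of mature migratory dendritic cells. Members were chosen by measured RNA. A barcode was taken if it held at least 1000 RNA UMIs (unique molecular identifiers, each standing for 1 captured transcript), at least 500 genes and at most 10% mitochondrial UMIs, and if at least 3 of the 6 genes Cfp, Ms4a6c, Ifitm3, Cd300a, Ffar2 and Il1b had a UMI. It also had to be without any UMI of Fscn1 (mature dendritic cells), Xcr1 (cDC1), Siglech (plasmacytoid dendritic cells), Cd3e (T cells) and Cd79a (B cells). In all, 386 of 19543 called cells in 3 libraries met these conditions, out of 53595 called cells in the 8 libraries of the series.

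Each of the 3 libraries held 1 time point of a mouse model of cholangitis. C57BL/6J mice aged 6 to 12 weeks were fed DDC (3,5-diethoxycarbonyl-1,4-dihydrocollidine), a xenobiotic that injures the bile ducts, at 0.1% of the chow. D0 was the control without DDC, D5 followed a short feeding (the title of that library gives day 5 and its description day 6) and D19 followed 19 days of feeding. Hepatoduodenal and celiac nodes were pooled, digested with collagenase, sorted into fractions on Cd45, Cd11c and Pdpn and mixed at equal ratios, so the share of a cell type among all cells is partly set by the sort. The number of mice per library is not given in the sources used here. With 1 library per day, day and library cannot be told apart, no test between days was made, and all intervals are 95% intervals (exact Clopper-Pearson for shares, exact Poisson for summed counts) that cover counting error only. Where a count was 0, the share it allows was taken as 3 cells of the total.

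Type 2 conventional dendritic cells (cDC2) are antigen-presenting cells that depend on the growth factor receptor Flt3 and prime CD4 T cells. Resident cDC2 enter nodes from the blood as precursors, whereas migratory cDC2 arrive from tissue after they have switched on Ccr7 and Fscn1. Monocytes also enter inflamed nodes from the blood, depend on Csf1r (CD115) and can take up MHC class II and other dendritic cell features, so the 2 lineages share many genes and are separated best by several markers at once. Classical monocytes carry Ly6c2 and Ccr2, non-classical monocytes carry Ace, Adgre4 and Cx3cr1, and macrophages carry complement C1q genes and F4/80 (Adgre1).

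The libraries also counted 11 antibody tags, oligonucleotides on antibodies against surface proteins. These tags were used neither in the choice of members nor in their clustering and are therefore the independent readout. The 6 tags that the results below rest on are shown with the 15-base antibody code in capitals, and the lower-case n mark random bases on either side (10 before, 9 after). CD115, CX3CR1 and F4/80 mark monocytes and macrophages, CD11b marks cDC2 and monocytes, and CD4 and CD301b separate subsets of cDC2. The codes were the same in all 3 libraries.
CD115: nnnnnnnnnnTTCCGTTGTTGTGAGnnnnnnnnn
CX3CR1: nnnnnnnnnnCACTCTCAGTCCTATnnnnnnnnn
F4/80: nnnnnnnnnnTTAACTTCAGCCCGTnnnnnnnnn
CD11b: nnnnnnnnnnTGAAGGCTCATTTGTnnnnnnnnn
CD4: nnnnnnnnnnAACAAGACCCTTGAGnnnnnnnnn
CD301b: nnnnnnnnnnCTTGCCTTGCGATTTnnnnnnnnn

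The 3 libraries held between 32013882 and 47653941 RNA UMIs and between 6248 and 6753 called cells. From the level of B and T cell genes in the members, set against the profile of barcodes under 100 UMIs, free RNA made up an estimated 7.44% to 8.26% of the members' RNA. Pairs of libraries shared 9 to 12 cell barcodes. Members were deeper than their surroundings, with median RNA UMI counts of 8814.5, 10096 and 6596 for D0, D5 and D19, against 4256, 4396 and 2919 in lymphocytes (cells with Cd3e or Cd79a and none of the 6 genes). Depth bears on the choice itself, because a deep cell is more likely to show 3 of 6 genes and also more likely to show a barred one.

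At D0, 210 of 6542 called cells were members, or 3.21% (2.80 to 3.67). At D5 the number was 89 of 6248, or 1.42% (1.15 to 1.75), and at D19 it was 87 of 6753, or 1.29% (1.03 to 1.59). The D0 interval lay above the other two, which overlapped each other. When every cell was first thinned to 1000 UMIs, the shares were 1.31%, 0.608% and 0.326%. The barred genes removed many candidates: 558, 246 and 200 cells had 3 of the 6 genes, and 348, 157 and 113 of these were left out.

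The values that chose the members are a description only. Ms4a6c, a membrane protein of myeloid cells, and Ifitm3, an interferon-induced antiviral protein, were the most widespread, with a UMI in 93.3% and 91.9% of members at D0, 94.4% and 98.9% at D5 and 89.7% and 93.1% at D19. Cfp, which encodes the complement factor properdin, had a UMI in 81.9%, 57.3% and 43.7% of members, and Ffar2, a receptor for short-chain fatty acids, in 61.4%, 60.7% and 27.6%. Il1b, the inflammatory cytokine interleukin 1 beta, was found in 42.4%, 58.4% and 62.1%. The membership therefore rested on partly different genes on different days. Just inside the threshold, with exactly 3 genes, lay 46, 13 and 34 cells, and just outside, with exactly 2, lay 18, 12 and 26. Median CD11b tag counts were 152.5, 770 and 314 just inside and 148, 386.5 and 101.5 just outside. Ccr7 was lower inside than outside in each library, with 68.4, 489 and 34.0 CPM (UMIs per 1000000 UMIs of the group) against 365, 563 and 178.

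Clustering of the 386 members on RNA, without the rule genes, gave 10 clusters that fall into 6 subgroups. Of the members, 191 were cDC2-like, 42 were monocyte-like and 28 were cDC1-like by their markers. The cDC2-like name rests on the contrast with non-members, over which 4 to 6 cDC2 markers were at least 2-fold higher in each of its 5 clusters. It was given only to clusters that had taken no other name. The Ccr7-Cxcl16 cluster also had 6 such markers, the Cd209a-Ly6c2 cluster 5 and the monocyte-like and NK-gene clusters 3 each. No listed cDC2 marker was among the 10 leading genes of the 5 cDC2-like clusters. Against the other members no cDC2 marker was 2-fold higher in these clusters, whereas 1 was in the Ccr7-Cxcl16 cluster, 2 were in the Cd209a-Ly6c2 cluster and 2 were in the monocyte-like cluster. The other 3 subgroups carry labels in place of type names. The Ccr7-Cxcl16 cluster (75 cells) and the Cd209a-Ly6c2 cluster (33 cells) are called by genes among their 10 leading ones. The NK-gene cluster (17 cells) is called by the list of NK cell genes. Of that list, 5 were at least 2-fold above the other members and 2 above non-members, and only Nkg7 was among its 10 leading genes. The working description of these cells as resident cDC2 and monocytes thus covers only part of them. At D19 the cDC2-like and monocyte-like subgroups held 21 and 16 of 87 members. The Ccr7-Cxcl16 cluster took no type name, and cDC1-like cells without an Xcr1 UMI and cells with lymphocyte genes also met the conditions. Whether the cells were resident was not measured. Because clusters are drawn from RNA, differences in RNA between subgroups are descriptive, and several clusters came nearly all from D0, so that they may be that library and not a type.

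**Figure D1:**
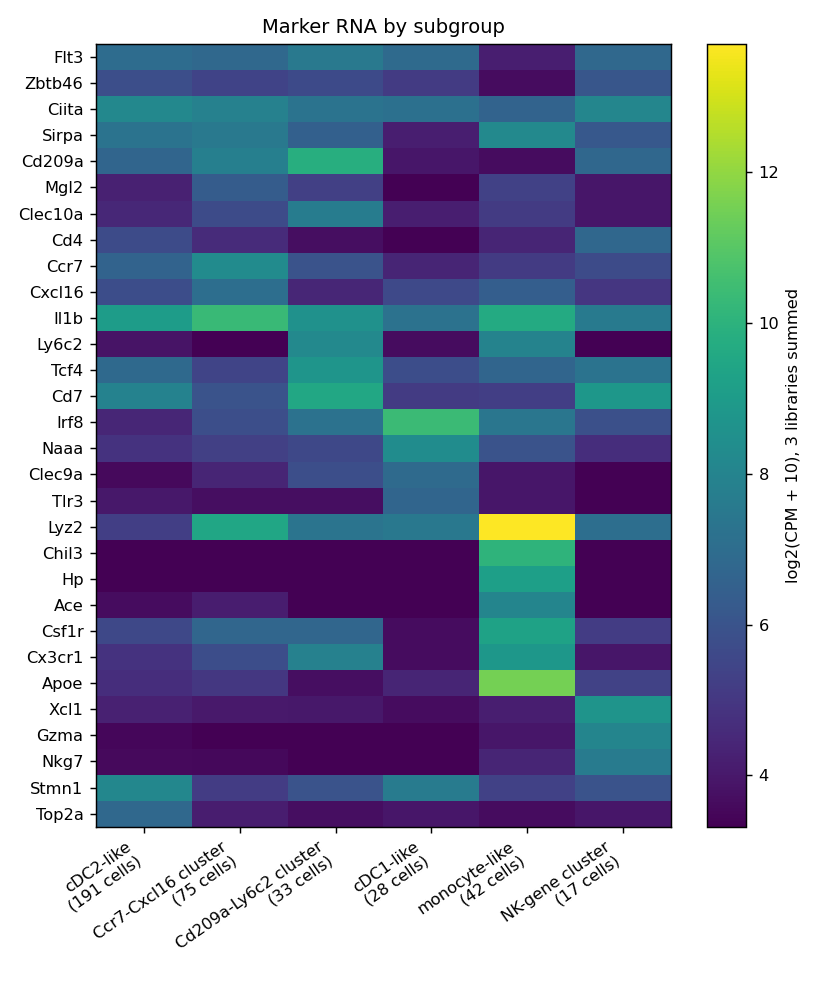
Heat map of marker RNA in the 6 subgroups of the 386 rule-selected cells, as log2(CPM + 10) with the 3 libraries summed (colour scale) and 1 row per gene. Lyz2, Chil3, Hp and Apoe are bright in the monocyte-like column, Irf8 in the cDC1-like column and Cd209a in the Cd209a-Ly6c2 column.

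Levels by subgroup sum the 3 libraries unless a day is given. Of the 191 cDC2-like cells 136 were from D0, but only 8 of the 42 monocyte-like cells were, so library differs along with subgroup in these contrasts. The cDC2-like cells carried genes that all conventional dendritic cells share. Flt3, the growth factor receptor of dendritic cells, stood at 119 CPM in them and at 8.23 CPM in the monocyte-like cells, and Zbtb46, a transcription factor of conventional dendritic cells, at 46.0 against 2.74 CPM. H2-Ab1, an MHC class II chain, stood at 8469 CPM in the cDC2-like and at 3161 CPM in the monocyte-like cells. H2-Oa, a modulator of peptide loading, stood at 444 against 16.5 CPM, a ratio of monocyte-like over cDC2-like cells of 0.0371 (0.0136 to 0.0811). Among markers of cDC2 themselves, Cd209a was higher in the cDC2-like cells (94.0 against 2.74 CPM), as was the transcription factor Irf4 (42.9 against 13.7 CPM). Others ran the other way, with Sirpa at 144 CPM in the cDC2-like and 288 CPM in the monocyte-like cells, Itgam, the CD11b gene, at 46.0 and 145 CPM and Mgl2 at 9.46 and 30.2 CPM.

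Conversely, the monocyte-like cells carried phagocyte genes that were low or without a UMI in the cDC2-like cells. Lyz2, the lysozyme of phagocytes, stood at 13220 CPM in all 42 of them against 28.4 CPM in the cDC2-like cells. Csf1r, the receptor that sustains monocytes and macrophages, stood at 620 against 37.2 CPM, a ratio of 16.7 (12.46 to 22.6), and also had a UMI in all 42 cells. Chil3 and Hp, secreted products of classical monocytes, had no UMI in the cDC2-like cells, and with a floor of 3 UMIs over that group (1.89 CPM) they were at least 568-fold and at least 297-fold higher in the monocyte-like cells. Ace and Adgre4, genes of non-classical monocytes, had a UMI in 29 and 31 of the 42 cells, and Ly6c2, the classical marker, in 14. Of the 9 non-classical genes listed, Treml4, Cx3cr1 and Spn were also higher than in the cDC2-like cells. Pglyrp1 was lower (118 against 310 CPM), Nr4a1 (617 against 694 CPM) and Eno3 (76.8 against 73.8 CPM) hardly differed, and Cd300e had no UMI. Some genes of both monocyte kinds were thus present in the subgroup.

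Macrophage genes were few in these cells. The complement gene C1qa had a UMI in 6 of the 42 monocyte-like cells and Adgre1, the F4/80 gene, in 12. Neutrophil genes were low, with S100a8 in 4 cells and Ly6g in none, while Csf3r stood at 46.6 CPM and Mmp8 at 27.4 CPM in the monocyte-like cells.

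Within the monocyte-like subgroup the libraries differed. Chil3 had a UMI in 1 of 8 cells at D0, in 12 of 18 at D5 and in 7 of 16 at D19, at 200 (106 to 341), 1634 and 436 CPM. Ly6c2 was found in 1, 11 and 2 cells, at 92.2, 366 and 65.3 CPM. Ace, by contrast, was found in 6, 13 and 10 cells, at 169, 270 and 272 CPM. Classical markers were therefore most frequent at D5, whereas the non-classical gene was in most cells on each day. H2-Ab1 ran the other way, with 5898 CPM at D0, 2954 at D5 and 1688 at D19. With 8 cells at D0, that library's values rest on very few cells.

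Counting marker genes cell by cell gave a similar division, but it is not an independent check. The genes were taken from the marker lists, part of which had named the clusters, and were counted in the same RNA. Agreement was therefore partly fixed in advance. Among the genes left out were Sirpa and Itgam of the cDC2 list and Pglyrp1, Nr4a1 and Eno3 of the non-classical list. Of 18 monocyte or macrophage genes, a monocyte-like cell had a median of 7 with a UMI (2 to 12), and a cDC2-like cell a median of 0 (0 to 3). Of 9 cDC genes, a cDC2-like cell had a median of 3 and a monocyte-like cell a median of 0.5. Cells with at least 3 genes of both sets were 7 of 210 at D0, 6 of 89 at D5 and 2 of 87 at D19. Most members had fewer than 3 monocyte or macrophage genes and could not qualify. These counts therefore do not show that mixed cells were rare among cells that had 3 or more. A gate on these counts called 43 cells monocyte-like, 40 of them from the monocyte-like cluster, and 3 of the 43 lay exactly at the threshold of 3 genes, while 42 cells had exactly 2, in 7 of which these outnumbered the cDC genes. The gate called 272 cells cDC2-like, of which 168 came from the cDC2-like clusters, 57 from the Ccr7-Cxcl16 cluster and 29 from the Cd209a-Ly6c2 cluster.

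**Figure D2:**
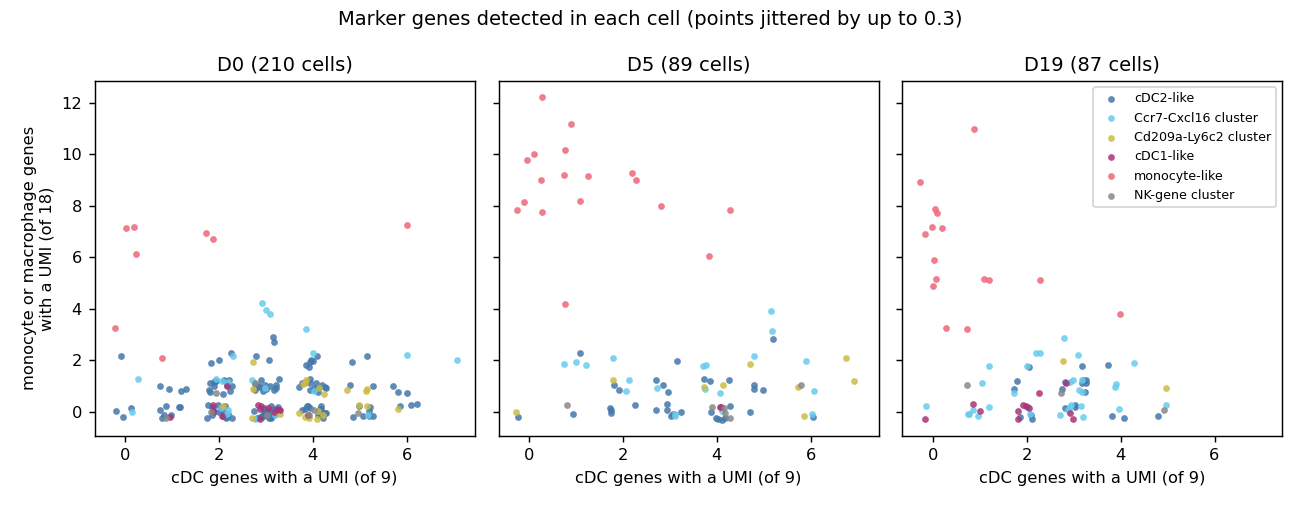
For each rule-selected cell, the number of 9 cDC genes (x axis) and of 18 monocyte or macrophage genes (y axis) with a UMI, in 1 panel per library, coloured by subgroup and jittered by up to 0.3. The monocyte-like cells (8 at D0, 18 at D5 and 16 at D19) lie mostly at upper left. Their lowest count on the y axis is 2, whereas cDC2-like cells reach 3 and Ccr7-Cxcl16 cells 4. At least 3 genes on both axes are found in 7 cells at D0, 6 at D5 and 2 at D19.

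The surface tags, which no step of the choice had used, followed this division. F4/80 had a median of 39.5 tag UMIs in the monocyte-like cells at D0, 68.5 at D5 and 90.5 at D19, against 7, 7.5 and 20 in the cDC2-like cells. The RNA of that protein, Adgre1, stood at 49.4 against 42.9 CPM with the 3 libraries summed, a ratio of 1.15 (0.644 to 1.96). Library differs along with subgroup in that sum, unlike in the tag medians. It therefore does not show whether Adgre1 RNA differed within a library. CX3CR1, a chemokine receptor, had medians of 58, 108.5 and 30 against 3, 3 and 1. CD115, the Csf1r protein, had medians of 31.5, 18 and 24 against 2 in each library. The monocyte-like cells were higher in 3 of 3 libraries for each of these tags.

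Nearly the whole panel was higher in the monocyte-like cells, however. Of the 11 tags, 10 had a higher median there in 3 of 3 libraries, including CD3 (12.5, 18.5 and 10 against 9, 8 and 2) and XCR1 (6, 9 and 2 against 1, 2 and 1), which these cells are not known to carry. After a centred log ratio within each cell, which removes a cell's overall tag level, 3 of 11 tags were still higher in 3 of 3 libraries, and these were F4/80, CD115 and CX3CR1. CD11b no longer was, with medians of 3.22, 3.94 and 3.06 against 3.07, 3.93 and 3.55 on that natural log scale.

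**Figure D3:**
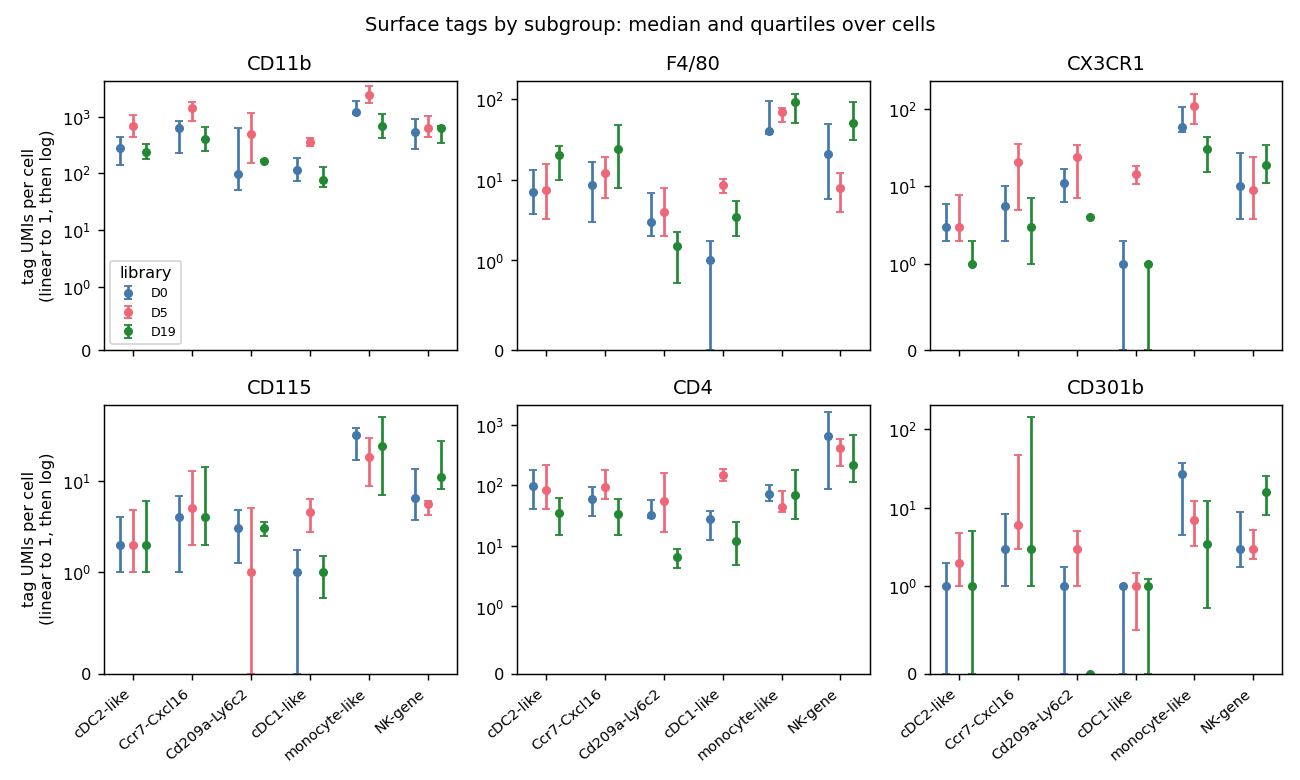
Tag UMIs per cell for 6 surface tags (y axis, linear to 1 and logarithmic above) in the 6 subgroups, with points for the median and bars for the quartiles over the cells of a library. F4/80, CX3CR1 and CD115 are highest in the monocyte-like cells in each library, and CD4 is highest in the NK-gene cluster.

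A cut-off at the 99th percentile of lymphocytes of the same library turned the tags into calls. At least 2 of F4/80, CD115 and CX3CR1 were above it in 25 of the 42 monocyte-like cells, or 59.5% (43.3 to 74.4), and in 5 of the 191 cDC2-like cells, or 2.62% (0.855 to 6.00). Among all members the share was 3.81% (1.66 to 7.37) at D0, 21.3% (13.4 to 31.3) at D5 and 10.3% (4.84 to 18.7) at D19. At the 95th percentile of lymphocytes it was 9.52%, 38.2% and 33.3%. The cut-offs moved between libraries, for F4/80 from 55.98 to 40.8 and 101.4 tag UMIs and for CD115 from 34.98 to 15 and 32, so the shares are not compared between days. In the monocyte-like cells 15 of 18 at D5 and 5 of 16 at D19 were above the F4/80 cut-off, although the median was higher at D19. Lymphocytes stood at 0.780%, 0.774% and 0.818%, and Fscn1+ Ccr7+ mature dendritic cells at 3.20%, 3.91% and 1.43%. The D0 value of the members lay within the interval of the mature cells (1.47 to 5.99), whereas at D5 and D19 the members' interval lay above that of the mature cells. The same call on the centred log ratio was met by almost no member (0%, 1.12% and 0%), so the call did not hold on that scale.

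CD11b protein was the tag most widely carried by the members. It was above the lymphocyte cut-off in 54.8% (47.8 to 61.6) of them at D0, 74.2% (63.8 to 82.9) at D5 and 34.5% (24.6 to 45.4) at D19. Xcr1+ cells, which are cDC1 and should lack it, stood at 10.99%, 0% (0 of 19 cells, which allows up to 15.8%) and 3.03%, and mature dendritic cells at 44.8%, 49.2% and 33.7%. The cut-off itself moved between libraries, from 253 tag UMIs at D0 to 557 at D5 and 469 at D19, so the shares are not compared between days. The doublet score filter left out 4, 2 and 1 members and also reset the cut-off on the remaining lymphocytes. With it the shares were 57.3%, 86.2% and 52.3%, and at the 95th percentile of lymphocytes they were 90.0%, 100% and 86.2%. XCR1 protein was above its cut-off in 0.952%, 2.25% and 6.90% of the members, against 83.5%, 94.7% and 87.9% of Xcr1+ cells. Of the 6 members above it at D19, 3 were cDC1-like, 2 were cDC2-like and 1 was in the NK-gene cluster.

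CD301b, the lectin encoded by Mgl2, marks cDC2B. It was above the cut-off in 4.29% (1.98 to 7.98) of members at D0, 14.6% (8.01 to 23.7) at D5 and 11.5% (5.65 to 20.1) at D19. At the 95th percentile of lymphocytes the shares were 10%, 30.3% and 31.03%, and the 99th percentile itself moved from 26.98 to 35 and 83.1 tag UMIs, so they are not compared between days either. Mature Fscn1+ Ccr7+ cells stood at 22.4%, 19.8% and 24.5%. In the Ccr7-Cxcl16 cluster it was above the cut-off in 3 of 22, 6 of 20 and 9 of 33 cells, in the monocyte-like cells in 4 of 8, 2 of 18 and 1 of 16, and in the cDC2-like cells in 1 of 136, 4 of 34 and 0 of 21. CD197, the Ccr7 protein, had member medians of 1, 3 and 1 tag UMIs, below the 4, 6 and 2 of mature cells in each library. It was above the cut-off in 1.90%, 5.62% and 4.60% of members and in 3.56%, 13.3% and 2.54% of mature cells, so at D19 the share was the higher one in members.

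CD4, carried by a resident cDC2 subset in spleen and nodes, gave a graded signal. Members with a Cd4 UMI numbered 44 at D0, 4 at D5 and 8 at D19, and had median CD4 tag counts of 154.5, 423.5 and 99. Members without one had 54, 70 and 27. RNA and protein thus pointed the same way in 3 of 3 libraries, although few members exceeded the lymphocyte cut-off (1.43%, 0% and 2.30%, the 0 of 89 cells allowing up to 3.37%). None of the 191 cDC2-like cells did (exact Clopper-Pearson upper bound 1.91%). The CD4 cut-offs (1235, 1883 and 829 tag UMIs) come from lymphocytes that include T cells carrying CD4, so these shares say little about CD4 on dendritic cells. The 3 cells at D0 were of the NK-gene cluster, and the 2 at D19 were 1 cell of that cluster and 1 monocyte-like cell. CD3 and CD8a were above their cut-offs in no member (0 of 210, 89 and 87 cells). Those cut-offs (421 and 3042 tag UMIs at D0) were likewise set by lymphocytes that include T cells, so these zeros bound no share. Even among Xcr1+ cells at D0, with a median CD8a of 759 tag UMIs, 7.69% were above.

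The cDC2-like cells were themselves not uniform. At D0 they lay in a cluster led by Nr4a3, Cd4 and Ptgs2 (45 cells), a cluster led by Hspa1a and Jun (34 cells), a cluster led by Ube2e2 and Grap (24 cells) and a proliferating cluster led by Pclaf, Top2a and Stmn1 (30 cells). The other 2 libraries together gave 5, 0, 3 and 1 cells to these clusters. At D5 26 of 34 and at D19 20 of 21 cDC2-like cells lay in a single cluster led by Abcg3 and Slc14a1, which held 3 cells of D0. Values of cDC2-like cells on different days therefore compare different clusters. Flt3 in them stood at 94.7, 180.5 and 219 CPM, Ciita, the master regulator of MHC class II genes, at 228, 382 and 483 CPM, and Cd209a, a C-type lectin of cDC2, at 102, 74.3 and 54.7 CPM.

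The Ccr7-Cxcl16 cluster had 6 cDC2 markers at least 2-fold above non-members but was left without a type name, because Ccr7 and Il4i1, genes of mature dendritic cells, were among its 10 leading genes. Its cells carried Ccr7 at 309 CPM and the cDC2B gene Mgl2 at 70.2 CPM, against 88.3 and 9.46 CPM in the cDC2-like cells. Il1b stood at 1300 CPM and the scavenger chemokine Cxcl16 at 126 CPM. Lyz2 reached 1118, 920 and 145 CPM at D0, D5 and D19, so these cells also carried a part of the phagocyte genes, yet Chil3 and Hp had no UMI in them. Csf1r stood at 97.3 CPM, between the cDC2-like and the monocyte-like level.

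In the Cd209a-Ly6c2 cluster, Cd209a reached 886 CPM together with Ly6c2 at 287, Bst2 at 857, Cd7 at 733 and Tcf4 at 411 CPM. These genes belong to cDC precursors and to plasmacytoid cells, and the study named Cd7, Ly6c2, Tcf4, Runx2 and Csf1r for precursors of dendritic cells, together with Siglech, which is at 0 in all members by the rule. The cells also carried Flt3 at 171 and Ccr2 at 484 CPM, with Chil3, Hp and Ace at 0 UMIs. At the protein level CX3CR1 had medians of 11, 24 and 4 tag UMIs against 3, 3 and 1 in the cDC2-like cells, while F4/80 was at 3, 4 and 1.5 (the D19 values are of 2 cells). The cluster thus shared Ly6c2 with monocytes but neither their secreted products nor the F4/80 tag.

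The cDC1-like cells showed Irf8, the transcription factor of the cDC1 lineage, at 1316 CPM, the lysosomal enzyme Naaa at 320 CPM and the dead-cell receptor Clec9a at 111 CPM, with Sirpa at 8.34 CPM. They had CD11b above the cut-off in 7.14% and XCR1 protein in 14.3% of 28 cells. In the NK-gene cluster, 17 cells combined the chemokine Xcl1 at 403 CPM, the cytotoxic granule gene Nkg7 at 189 CPM and the T cell receptor gene Trbc2 at 204 CPM with H2-Ab1 at 6065 CPM. Gzma, another granule gene, was at 251 CPM, with 97.9% of its UMIs in 1 cell. The cluster's CD4 tag medians of 641, 408.5 and 214 were the highest of the subgroups. A doublet score marked 4 of these 17 cells (23.5%), against 2 of 191 cDC2-like and 0 of 42 monocyte-like cells.

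The makeup of the members differed between the libraries. Monocyte-like cells were 8 of 210 at D0, or 3.81% (1.66 to 7.37), 18 of 89 at D5, or 20.2% (12.4 to 30.1), and 16 of 87 at D19, or 18.4% (10.9 to 28.1). The D0 interval did not overlap the other two. With at least 4 of the 6 rule genes the shares were 3.05%, 19.7% and 9.43%, the last from 5 of 53 cells. Among all called cells they were 0.122% (0.0528 to 0.241), 0.288% (0.171 to 0.455) and 0.237% (0.135 to 0.384), where the intervals overlapped. The larger share among the members therefore went together with fewer other members at D5 and D19.

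The share of cDC2-like cells was 64.8% at D0, 38.2% at D5 and 24.1% at D19, while the Ccr7-Cxcl16 cluster held 10.5%, 22.5% and 37.9%. The sum of both was 75.2% (68.8 to 80.9), 60.7% (49.7 to 70.9) and 62.1% (51.0 to 72.3). Other settings moved the cDC2-like share to between 36.4% and 79.3% at D0 and up to 73.6% at D19, so no difference between days is read from it. Cd209a-Ly6c2 cells were 22, 9 and 2 in number, or 10.5%, 10.1% and 2.30% (0.280 to 8.06) of the members.

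**Figure D4:**
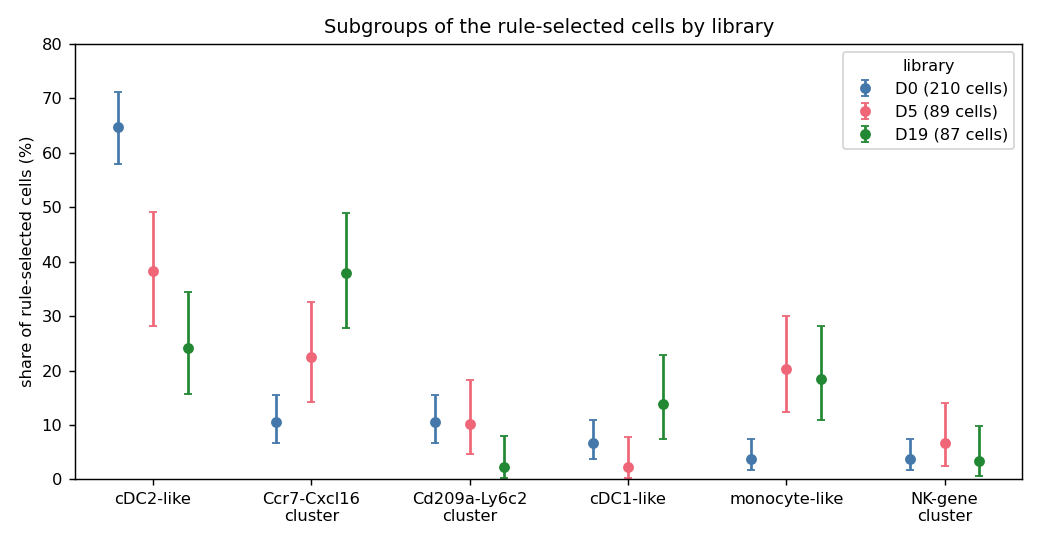
Share of the rule-selected cells in each of 6 subgroups (y axis, percent) at D0 (210 cells), D5 (89) and D19 (87), with exact 95% binomial intervals as bars. The monocyte-like share is 3.81% at D0, 20.2% at D5 and 18.4% at D19.

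Gene levels were compared on the summed counts of the members, as log2 changes of CPM with 10 CPM added. In such sums more cells of a kind and more RNA per cell cannot be told apart. A change of at least 1 in a gene with at least 30 UMIs over both days is called a rise or a fall below. Between D0 and D5, 138 of 6663 genes rose (2.07%) and 133 fell (2.0%), or 4.07% in either direction, against 0.21% and 0.27% in the other called cells of the same libraries over the same genes. Between D0 and D19, 114 of 6199 genes rose (1.84%) and 346 fell (5.58%), or 7.42% in either direction, against 0.79% and 1.34%. The other cells outnumber the members many times over, and the genes were chosen by UMIs of the members. Counting error and single cells therefore push more genes past the threshold in the members, and the 2 sets of shares do not compare sizes of change. With median-of-ratios size factors in place of CPM the D19 split was 165 rises and 261 falls. The medians over all genes were 0.004 at D5 and -0.11 at D19, and both comparisons share the D0 library. In the cDC2-like cells alone, where fewer cells are summed, 3.2% of genes rose and 5.52% fell at D5, and 8.11% rose and 15.7% fell at D19.

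Of 9 classical monocyte genes, 7 had the 30 UMIs needed for a call at D5 and all 7 rose (Ly6c2, Ccr2, F13a1, Chil3, Fn1, Hp and Mgst1). At D19 4 had them, of which Chil3 and Hp rose. A gene near 0 at D0 reaches 30 UMIs only if it is high on the later day, so these counts are partly fixed by that minimum and are not support for a rise of the list. Chil3 was at 6.62 CPM at D0, 368 at D5 and 68.0 at D19, a ratio of 55.6 (32.1 to 105) at D5 and of 10.3 (5.38 to 20.9) at D19, and it was found in 1, 12 and 7 members. Hp was at 19.9, 128 and 81.6 CPM and Ccr2, the receptor that lets monocytes leave the marrow, at 102, 252 and 148 CPM. Ly6c2 stood at 37.7, 122 and 15.3 CPM, above D0 at D5 and below it at D19, while the free RNA held more of it on each day (278, 206 and 160 CPM). Chil3 also rose in the other cells at D5, by 1.71 on the log2 scale.

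Genes shared by monocytes and macrophages followed. Lyz2 was at 583, 3784 and 1372 CPM and the lipid carrier Apoe at 117, 560 and 651 CPM, where the free RNA itself held Apoe at 151, 256 and 206 CPM. Csf1r was at 48.9, 220 and 148 CPM. Pla2g7, a secreted phospholipase, was at 16.8, 190 and 172 CPM, the matrix genes Fn1 at 7.64, 104 and 15.3 and Tgfbi at 26.5, 195 and 145 CPM. Of 8 non-classical monocyte genes with enough UMIs, Ace (9.17, 63.0 and 42.5 CPM) and Adgre4 (15.3, 92.3 and 79.9 CPM) rose on both days, and Pglyrp1 fell on both, at 256, 121 and 98.6 CPM. Of the macrophage genes, Csf1r rose at D5, as did C1qc, whose UMIs came from 1 or 2 cells per library. At D19 Csf1r rose and Adgre1 fell (44.8, 20.6 and 15.3 CPM).

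Without the monocyte-like cells 62 genes rose at D5 in place of 138 and 87 at D19 in place of 114, while 145 fell at D5 in place of 133 and 395 at D19 in place of 346. At D5 Fn1 had a log2 change of -0.14 in place of 2.70. In the cDC2-like cells alone the changes at D5 were 0 for Chil3 and Hp, which had no UMI there, -0.50 for Pla2g7 and -0.42 for Apoe. Other genes kept a change above 1 at D5. Csf1r was at 18.4, 92.0 and 100 CPM in the cDC2-like cells, with log2 changes of 1.84 and 1.95, and without the monocyte-like cells its changes were 1.17 and 0.81. Lyz2 had a log2 change of 1.22 at D5 in the cDC2-like cells and of 1.17 without the monocyte-like cells, but also of 0.89 in the other cells, and its level in the cDC2-like cells (20.1, 60.2 and 36.4 CPM) was below that of the free RNA (289, 164 and 98.0 CPM).

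**Figure D5:**
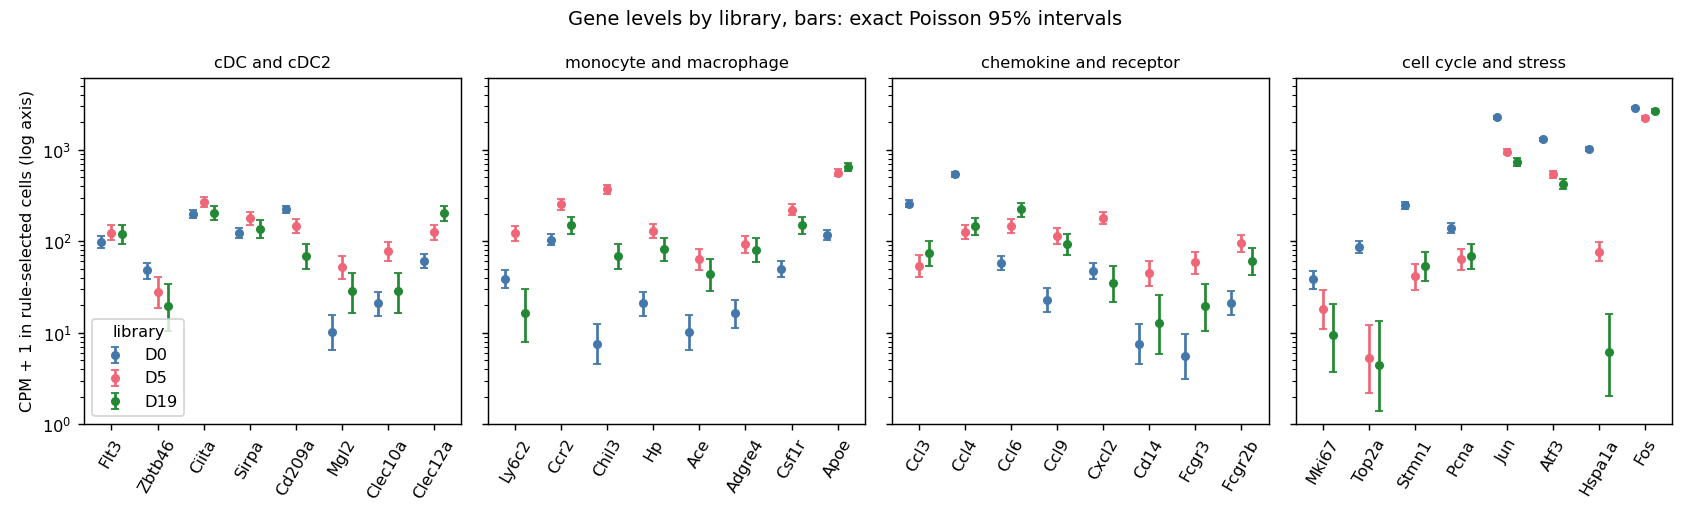
Level of 32 genes in the rule-selected cells of each library (y axis, CPM + 1, log axis), in 4 panels by gene group, with exact 95% Poisson intervals of the summed counts as bars. Chil3 runs from 6.62 CPM at D0 to 368 at D5 and 68.0 at D19. In the cDC and cDC2 panel, Flt3, Ciita and Sirpa stay within 1.5-fold of D0. The other genes of that panel, Zbtb46, Cd209a, Mgl2, Clec10a and Clec12a, differ from D0 by more than that at D5, D19 or both.

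Of the 4 core genes of conventional dendritic cells, none was called in the summed members. Of all genes tested there, 4.07% were called at D5 and 7.42% at D19, so no call among 4 genes is near that share. Neither day took Flt3 (97.3, 123 and 117 CPM), Zbtb46 (46.9, 27.1 and 18.7 CPM), Bcl11a (152, 161 and 160 CPM) or Ciita (199, 265 and 204 CPM) past a log2 change of 1, although Zbtb46 came to -0.99 at D19. In the cDC2-like cells alone, 21 of them at D19, the D19 changes were 1.13 for Flt3, 1.496 for Bcl11a and 1.05 for Ciita, all above 1, and -1.13 for Zbtb46, where 8.11% of all genes tested rose and 15.7% fell. Of 10 MHC class II genes, 1 fell, H2-DMb2 at D19 (455, 335 and 214 CPM), and it fell by as much in the other cells (-1.05 against -1.02). H2-Ab1 stood at 7758, 8550 and 6950 CPM.

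Among 7 cDC2 genes with enough UMIs, Mgl2 (9.17, 51.0 and 27.2 CPM) and Clec10a (19.9, 77.1 and 27.2 CPM), 2 galactose-binding lectins of cDC2B, rose at D5. Cd209a was at 221, 147 and 68.0 CPM and fell at D19, by 1.57 on the log2 scale. Clec12a, an inhibitory lectin receptor, was at 60.1, 125 and 201 CPM and rose at D19, and it was found in 56 of 210, 41 of 89 and 52 of 87 members. Thinned to 1000 UMIs per cell, Clec12a was found in 5.71%, 13.5% and 19.5% of members, against 0.634%, 1.22% and 0.397% of lymphocytes. In the other cells Clec12a had log2 changes of -0.51 and -0.53. The cDC2B genes thus did not move together.

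Chemokines changed in both directions. Ccl6 (57.0, 147 and 221 CPM) and Ccl9 (21.9, 113 and 91.8 CPM), which attract monocytes and dendritic cells through Ccr1, rose on both days. The D5 change of Ccl6 was -0.081 without the monocyte-like cells and 0.025 in the cDC2-like cells alone, while that of Ccl9 was 1.44 and 1.93. At D19 the changes were 1.36 and 2.05 for Ccl6 and 1.55 and 2.80 for Ccl9. Ccl3 (255, 53.2 and 73.1 CPM) and Ccl4 (537, 126 and 145 CPM), chemokines that attract leukocytes, fell on both days and fell by a like amount in the other cells (-1.72 and -1.71 for Ccl3, -2.10 and -1.74 for Ccl4). The neutrophil chemokine Cxcl2 rose at D5, at 46.3, 179 and 34.0 CPM, but was found in 13, 12 and 6 cells. Cxcl16 rose at D19 (39.2, 68.4 and 104 CPM), as it did in the other cells by 1.57.

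Of the cytokine genes outside the rule, the inflammatory cytokine Tnf fell at D5 and rose at D19, at 27.0, 3.26 and 73.1 CPM in 28, 3 and 12 cells. The interleukin 1 antagonist Il1rn rose at D5, at 6.11, 41.3 and 5.10 CPM. Il23a, a subunit of the cytokine that induces interleukin 17, had no UMI in any of the 386 members, which allows a level of up to 0.864 CPM (3 UMIs in 3472817).

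Of 14 measured receptors of innate sensing, 8 had enough UMIs for a call at D5 and 4 of these rose (Cd14, Fcgr2b, Fcgr3 and Msr1), while at D19 5 had enough and Clec12a and Fcgr2b rose. The same limit of the minimum applies, and the sets differ between days. The lipopolysaccharide co-receptor Cd14 was at 6.62, 43.4 and 11.9 CPM, the activating Fc receptor Fcgr3 at 4.58, 57.5 and 18.7 CPM and the inhibitory Fc receptor Fcgr2b at 20.4, 93.4 and 59.5 CPM. The scavenger receptor Msr1 came from 13 members at D5 and 1 member each at D0 and D19. In the cDC2-like cells Fcgr3 had log2 changes of -0.22 on both days, from 2 UMIs at D0. The members' median sum over the 11 tags was highest at D5 (590, 1596 and 525 tag UMIs), whereas that of lymphocytes, on which the cut-offs rest, was lowest there (605, 101 and 309). Fc receptors can bind antibodies. Fcgr3 stood at 181 CPM in the monocyte-like and 1.26 CPM in the cDC2-like cells, and Fcgr2b at 239 and 5.05 CPM. The part of Fc receptors in the tag results was not tested.

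None of 8 costimulation genes with enough UMIs passed a log2 change of 1 in the summed members, where 4.07% of all genes tested did so at D5 and 7.42% at D19, with Cd80 at 30.6, 39.1 and 20.4 CPM, Cd86 at 63.1, 94.5 and 88.4 CPM and Cd40 at 49.9, 74.9 and 34.0 CPM. Their median log2 change at D19 was -0.33 in the members, 0.13 in the other cells and 0.66 in the cDC2-like cells alone. Of 8 genes of NF-kB and interleukin 17 induction that the study chose, Nfkbid fell at D5 and Relb fell at D19 (228, 189 and 61.2 CPM, with changes of 0.50 and 0.43 in the other cells). Of the interferon genes, 1 of the 11 that had enough UMIs was up at D5, and 2 were up and 2 down of 9 at D19. They were Gbp2 at D5, and at D19 Ifit3 and Cxcl10 (up) and Isg15 and Usp18 (down). Cxcl10 at D19 had 99 of its 102 UMIs in 1 cell. The median log2 change of the 9 genes at D19 was 0.13 in the members, -0.70 in the other cells and 2.32 in the 21 cDC2-like cells, which had 4 to 101 UMIs of each.

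The clearest fall was that of cell cycle genes. Of 7 measured, 6 fell at D5 (median log2 change -1.86, other cells -0.25) and 4 at D19 (median -1.13, other cells -0.15). Top2a, the topoisomerase of dividing cells, was at 85.1, 4.34 and 3.40 CPM and had a UMI in 30, 4 and 2 members, and Stmn1, a regulator of microtubules, was at 245, 40.2 and 52.7 CPM in 58, 11 and 9 members. Pclaf, a partner of the replication clamp, was at 138 CPM at D0 and had no UMI at D5, at least 42.4-fold lower (floor of 3 UMIs in that library). The histone genes Hist1h2ae (186, 20.6 and 11.9 CPM) and Hist1h1b (162, 40.2 and 1.70 CPM) and the cyclin Ccnd1 (912, 280 and 139 CPM) were also lower after DDC. Ccnd1 fell in the other cells too, by 1.65 on the log2 scale at D19.

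Counted per cell, 40 of 210 members had at least 3 of the 7 cell cycle genes at D0, or 19.05% (13.97 to 25.0), against 5 of 89, or 5.62% (1.85 to 12.6), at D5 and 5 of 87, or 5.75% (1.89 to 12.9), at D19. Lymphocytes stood at 1.95%, 0.973% and 1.24%. Thinned to 1000 UMIs, at least 2 of the 7 genes were found in 7.14%, 1.12% and 1.15% of members and in 0.707%, 0.575% and 0.793% of lymphocytes. At D5 and D19 the thinned member shares are 1 cell each, too few to compare with lymphocytes. In the cDC2-like cells alone Top2a had log2 changes of -2.81 and -3.85, and 30 of the 31 cells of the proliferating cluster were from D0.

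Of 11 genes that tissue digestion can induce, 4 fell in the members at both D5 and D19, namely Jun, Atf3, Hspa1a and Hspa1b. The heat shock gene Hspa1a was at 1022, 76.0 and 5.10 CPM, with log2 changes of -3.59 and -6.09 in the members and -3.12 and -5.23 in the other cells, and free RNA at D0 held it at 450 CPM. Jun (2251, 949 and 734 CPM) and Atf3 (1299, 541 and 423 CPM) fell by similar amounts in both, while Fos stood at 2841, 2208 and 2655 CPM. Over 11 such genes the medians were -0.72 and -0.61 in the members and -0.78 and -0.76 in the other cells. The part of this difference between libraries in the other falls, among them those of Ccl3 and Ccl4, was not tested.

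Among the remaining genes with the largest changes, Gpr141, an orphan receptor, rose from 32.6 CPM at D0 to 84.7 at D5 and 172 at D19 and was found in 50 of 87 members at D19. The prostaglandin-degrading enzyme Hpgd was at 12.7, 55.4 and 98.6 CPM, the growth factor receptor Fgfr1 at 6.11, 19.5 and 61.2 CPM and BC028528 at 26.0, 77.1 and 151 CPM. In the cDC2-like cells alone the log2 changes of Gpr141, Hpgd, Fgfr1 and BC028528 at D19 were 3.09, 1.31, 1.97 and 1.57. The lipid carrier Apoc2 (4.58, 46.7 and 79.9 CPM, from 8 cells at D19) had a log2 change of 0 there. Haus8, a spindle protein, was at 308, 85.8 and 42.5 CPM and fell in the other cells as well, by 1.06 at D19.

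Some values rest on single cells. The mast cell proteases Mcpt4 (114 CPM) and Cpa3 (45.3 CPM) at D0 came from 1 cell with all of their UMIs, and both changes are 0 without that cell, which was clustered as cDC2-like. Haemoglobin Hbb-bs at D19 had 5636 of 5678 UMIs in 1 cell. Of the markers of other cell types, 7 B cell genes summed to 235, 181 and 119 CPM and 7 T cell genes to 86.6, 56.5 and 71.4 CPM, with Cd3e and Cd79a at 0 by the rule. The 5 NK cell genes summed to 67.7, 44.5 and 5.10 CPM, and the 3 with enough UMIs fell at D19 (median -1.48, other cells -1.95). The 8 stromal or endothelial genes summed to 19.9, 31.5 and 6.80 CPM and the 8 neutrophil genes to 4.58, 30.4 and 11.9 CPM. Of 4 cDC1 genes with enough UMIs (7 listed), Tlr3 and Naaa rose at D19, the day with the highest cDC1-like share, and none passed at D5. No plasmacytoid gene with enough UMIs passed on either day, and of the 2 mature dendritic cell genes that had enough (9 listed) Il4i1 fell at D19.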

How the data were processed

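The authors deposited, per the labels and the file headers, raw counts of UMIs per gene and per antibody tag for every barcode, made with Cell Ranger against mm10 from Chromium 3' libraries with feature barcoding. No normalization had been applied to the counts.

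Cells were called by the limits in the report with no doublet filter. Scrublet's own threshold marked 3, 4 and 0 cells and had not worked, so its highest scores (0.8% per 1000 cells) served as an alternative. Members were clustered with scanpy 1.11.5 (2000 variable genes without rule, mitochondrial and ribosomal genes, 20 principal components, 15 neighbours, Leiden resolution 1). Clusters were named from at least 3 markers. The 10 leading genes served to withhold a name and to label the Ccr7-Cxcl16 and Cd209a-Ly6c2 clusters. Comparison cells (lymphocytes, Xcr1+, Fscn1+ Ccr7+) were set by RNA. Levels are CPM of summed counts, and the 8 largest rises and falls per comparison whose intervals did not overlap and whose higher level was at least 2 times the free RNA were named, with the genes of the lists. The scripts were tested on simulated data. Members, lists and markers were chosen with earlier results of these data known. The matrices hold no row for Mx1 or Clec7a, which were not analysed here. Intervals used scipy 1.17.1.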

Additional observations from a re-analysis of the deposited data

How the results depend on the processing

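Over the alternatives tried, the monocyte-like share of the members ranged from 2.86% to 4.76% at D0, 17.98% to 20.7% at D5 and 9.43% to 18.6% at D19. The share of cDC2-like cells depended on the settings, and the cause was not tested. With at least 4 of the 6 rule genes the members were 2.51% of called cells at D0 and 0.785% at D19, the cDC2-like share was 79.3%, 64.5% and 73.6%, the monocyte-like share at D19 was 9.43% and CD11b at D0 was above its cut-off in 62.2%. Thinning to 1000 UMIs, which detects fewer genes, gave member shares of 1.31%, 0.608% and 0.326%. The cDC2-like share was 50.2% at D0 and 38.4% at D19 with a minimum of 1500 UMIs, 36.4% at D0 with the doublet score filter, 57.1% at D0 and 46.0% at D19 at 2 times the clustering resolution, and 79.0%, 61.8% and 58.6% by gates per cell. The doublet score filter, with the cut-off reset on the remaining lymphocytes, also gave CD11b in 86.2% at D5 and 52.3% at D19.

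With the centred log ratio, CD11b was above the cut-off in 68.1% at D0 and 47.1% at D19, and at least 2 of F4/80, CD115 and CX3CR1 in 0%, 1.12% and 0%. With the 95th percentile of lymphocytes, chosen after seeing the data, CD11b was above it in 90.0%, 100% and 86.2%, and at least 2 of the 3 tags in 9.52%, 38.2% and 33.3%.

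Adding 1 CPM in place of 10 gave 328 rises and 324 falls at D5 and 278 and 717 at D19, and a minimum of 100 UMIs, which tests fewer genes, gave 63 and 83 at D5 and 52 and 199 at D19. The cDC2-like cells alone gave 262 falls at D5 and 356 rises and 691 falls at D19. Median-of-ratios size factors, whose offsets of 0.008 at D5 and -0.14 at D19 are subtracted from the log2 changes, gave 165 rises and 261 falls at D19. Without the monocyte-like cells, chosen after seeing the data, 62 genes rose at D5. Signs turned in the cDC2-like cells alone for Pla2g7 (-0.50), Fn1 (-0.12), Fcgr3 (-0.22), Apoe (-0.42) and Ly6c2 (-0.67) at D5 and Apoe (-0.53) and Ace (-0.32) at D19. They turned without the monocyte-like cells for Fn1 (-0.14), Fcgr3 (-0.21), Ccl6 (-0.081) and Ace (-0.096) at D5 and Ace (-0.45) at D19. No paired analysis was possible because each day had 1 library. The monocyte-like values of D0 rest on 8 cells.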
